A study of Mus musculus with 48 samples.

Results

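A set of 8 genes of the canonical Wnt pathway, among the 24264 transcript rows in the read count table, were followed through mouse fibroblasts, reprogramming cells, induced pluripotent stem cells (iPSCs) and embryonic stem cells (ESCs). They were chosen by name: Axin2, Sp5, Nkd1, Cdx1 and T (Brachyury), which are direct targets of beta-catenin in many tissues, and Lef1, Tcf7 and Tcf7l1, which encode the DNA-binding TCF/LEF partners of beta-catenin. The 48 libraries fell into 20 conditions, with 3 libraries in each of 8 sorted reprogramming populations and 2 in every other condition, and were made with a 5′-end RNA sequencing method (STRT), so a value counts reads at transcript starts and is given as CPM, the reads of a gene per 1000000 reads on transcripts of the library. The libraries held 1429717 to 14174725 such reads (median 6243254), and 4546060 to 9643768 in the 8 libraries of MKOS and OKMS iPSCs on which most of the text turns. In those 8 libraries 3 reads correspond to 0.311 to 0.660 CPM, and a level listed at 0 allows a true level of up to that value by counting error alone.

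MKOS and OKMS name 2 doxycycline-inducible cassettes of c-Myc, Klf4, Oct4 and Sox2 in different orders. Each was targeted, with an rtTA gene under the CAG promoter, into an intron of Sp3 in TNG ESCs, which carry a Nanog-GFP reporter, giving the TNG MKOS ESCs and TNG OKMS ESCs. The MKOS MEFs and OKMS MEFs were embryonic fibroblasts isolated from chimeric embryos made with those ESCs, and the cultures that were reprogrammed mixed them with an excess of wild-type MEFs. Sorted populations were taken on day 10 of culture with doxycycline and vitamin C by the study's account, whereas the sample labels name 10 or 15 days. Their names give E-cadherin (E-CAD+ or E-CAD-), gate 2 (CD44 low, ICAM1 low) or gate 3 (CD44 low, ICAM1 high), and the reporter (NG+ or NG-). The MKOS iPSCs and OKMS iPSCs were profiled without doxycycline (-dox) and in 2i, with 2 libraries for each cassette and medium. For ESCs and iPSCs in general the study's methods name a medium with fetal calf serum and LIF. They do not say whether 2i kept that serum, so -dox and 2i may also differ in serum. The sources do not say what 2i held or whether doxycycline was present in it, and the labels do not say whether the 2 libraries were separate lines, and p-values therefore measure the spread between libraries, which may be technical. The other references were wt MEFs, parental TNG ESCs, E14 ESCs and D6 iPSCs, a line with a piggyBac MKOS insertion in Sp3.

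In the absence of Wnt, a complex of AXIN, APC, CK1 and GSK3 marks beta-catenin for degradation, and TCF factors hold target genes down together with TLE corepressors. Wnt binding to Frizzled and LRP receptors, or a GSK3 inhibitor, lets beta-catenin accumulate, enter the nucleus and relieve or activate TCF-bound genes. The medium known as 2i combines a GSK3 inhibitor with an inhibitor of MEK. In mouse ESCs the main repressor of the family is TCF7L1 (TCF3), which restrains genes such as Nanog, Esrrb and Tfcp2l1, while TCF7 and LEF1 more often act with beta-catenin as activators. AXIN2 and NKD1 are negative feedback proteins of the pathway, SP5 is a zinc-finger repressor that limits other Wnt targets, CDX1 is a homeobox factor of the posterior embryo, and T is the T-box factor of the primitive streak and early mesoderm.

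The promoters of Sp5 and T, and that of Axin2 for contrast, are shown because TCF factors recognise cores such as TCAAAG. That sequence is in capitals wherever it stands on either strand (as TCAAAG or CTTTGA). Only this form was searched, and other forms of the core are not marked or counted. The windows are RefSeq sequence of build GRCm38.p6 from 250 bases before to 50 bases after an annotated transcript start, all on the plus strand, at chr2:70474673-70474972 for Sp5, chr17:8434173-8434472 for T and chr11:108920099-108920398 for Axin2, where that start lies inside the gene.
Sp5: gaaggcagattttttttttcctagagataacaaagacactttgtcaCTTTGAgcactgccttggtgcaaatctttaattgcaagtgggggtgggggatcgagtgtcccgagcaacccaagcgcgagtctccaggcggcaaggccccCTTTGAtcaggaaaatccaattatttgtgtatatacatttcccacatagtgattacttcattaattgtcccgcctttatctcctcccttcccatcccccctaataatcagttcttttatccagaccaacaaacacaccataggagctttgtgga
T: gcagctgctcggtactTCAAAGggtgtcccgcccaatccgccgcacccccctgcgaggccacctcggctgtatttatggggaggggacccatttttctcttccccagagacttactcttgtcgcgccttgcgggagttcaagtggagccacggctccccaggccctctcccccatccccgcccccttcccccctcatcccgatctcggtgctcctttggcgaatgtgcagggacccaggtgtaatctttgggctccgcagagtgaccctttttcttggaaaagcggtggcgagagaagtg
Axin2: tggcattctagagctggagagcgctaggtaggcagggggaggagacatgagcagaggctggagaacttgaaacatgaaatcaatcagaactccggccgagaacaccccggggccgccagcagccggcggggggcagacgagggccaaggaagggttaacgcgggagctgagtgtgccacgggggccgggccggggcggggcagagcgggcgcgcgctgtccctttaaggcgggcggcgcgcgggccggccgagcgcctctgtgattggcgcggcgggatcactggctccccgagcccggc
The Sp5 window held the core at 2 positions, beginning 204 and 104 bases before the start, and the T window held it once, beginning 234 bases before the start. None was in the Axin2 window. The same letters occurred in 16.0% of all 32851 windows of this length, and 1.73% held 2 or more. Windows were read for 7 of the 8 genes, 11 windows in all, and the core was also present in 1 of the 4 Lef1 windows, at an internal start.

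The 8 genes lie on GRCm38 as annotated by RefSeq at chr11:108917828-108950783 (Axin2, plus strand), chr3:131110297-131224357 (Lef1, plus), chr11:52246527-52283383 (Tcf7, minus), chr6:72626371-72789045 (Tcf7l1, minus), chr2:70474923-70477726 (Sp5, plus), chr8:88521342-88594887 (Nkd1, plus), chr18:61018862-61036199 (Cdx1, minus) and chr17:8434423-8442496 (T, plus). At least 99.9% of the reads of each gene were counted as unique, so near-identical copies took no visible share. All 8 passed the filter on low counts and were among the 15630 genes tested. Detection differed widely. Tcf7l1 had reads in 48 of 48 libraries and Tcf7 in 47, Axin2 in 45 and Lef1 in 44, whereas Sp5 had any read in 26, Nkd1 in 25, T in 19 and Cdx1 in 16.

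**Figure D1:**
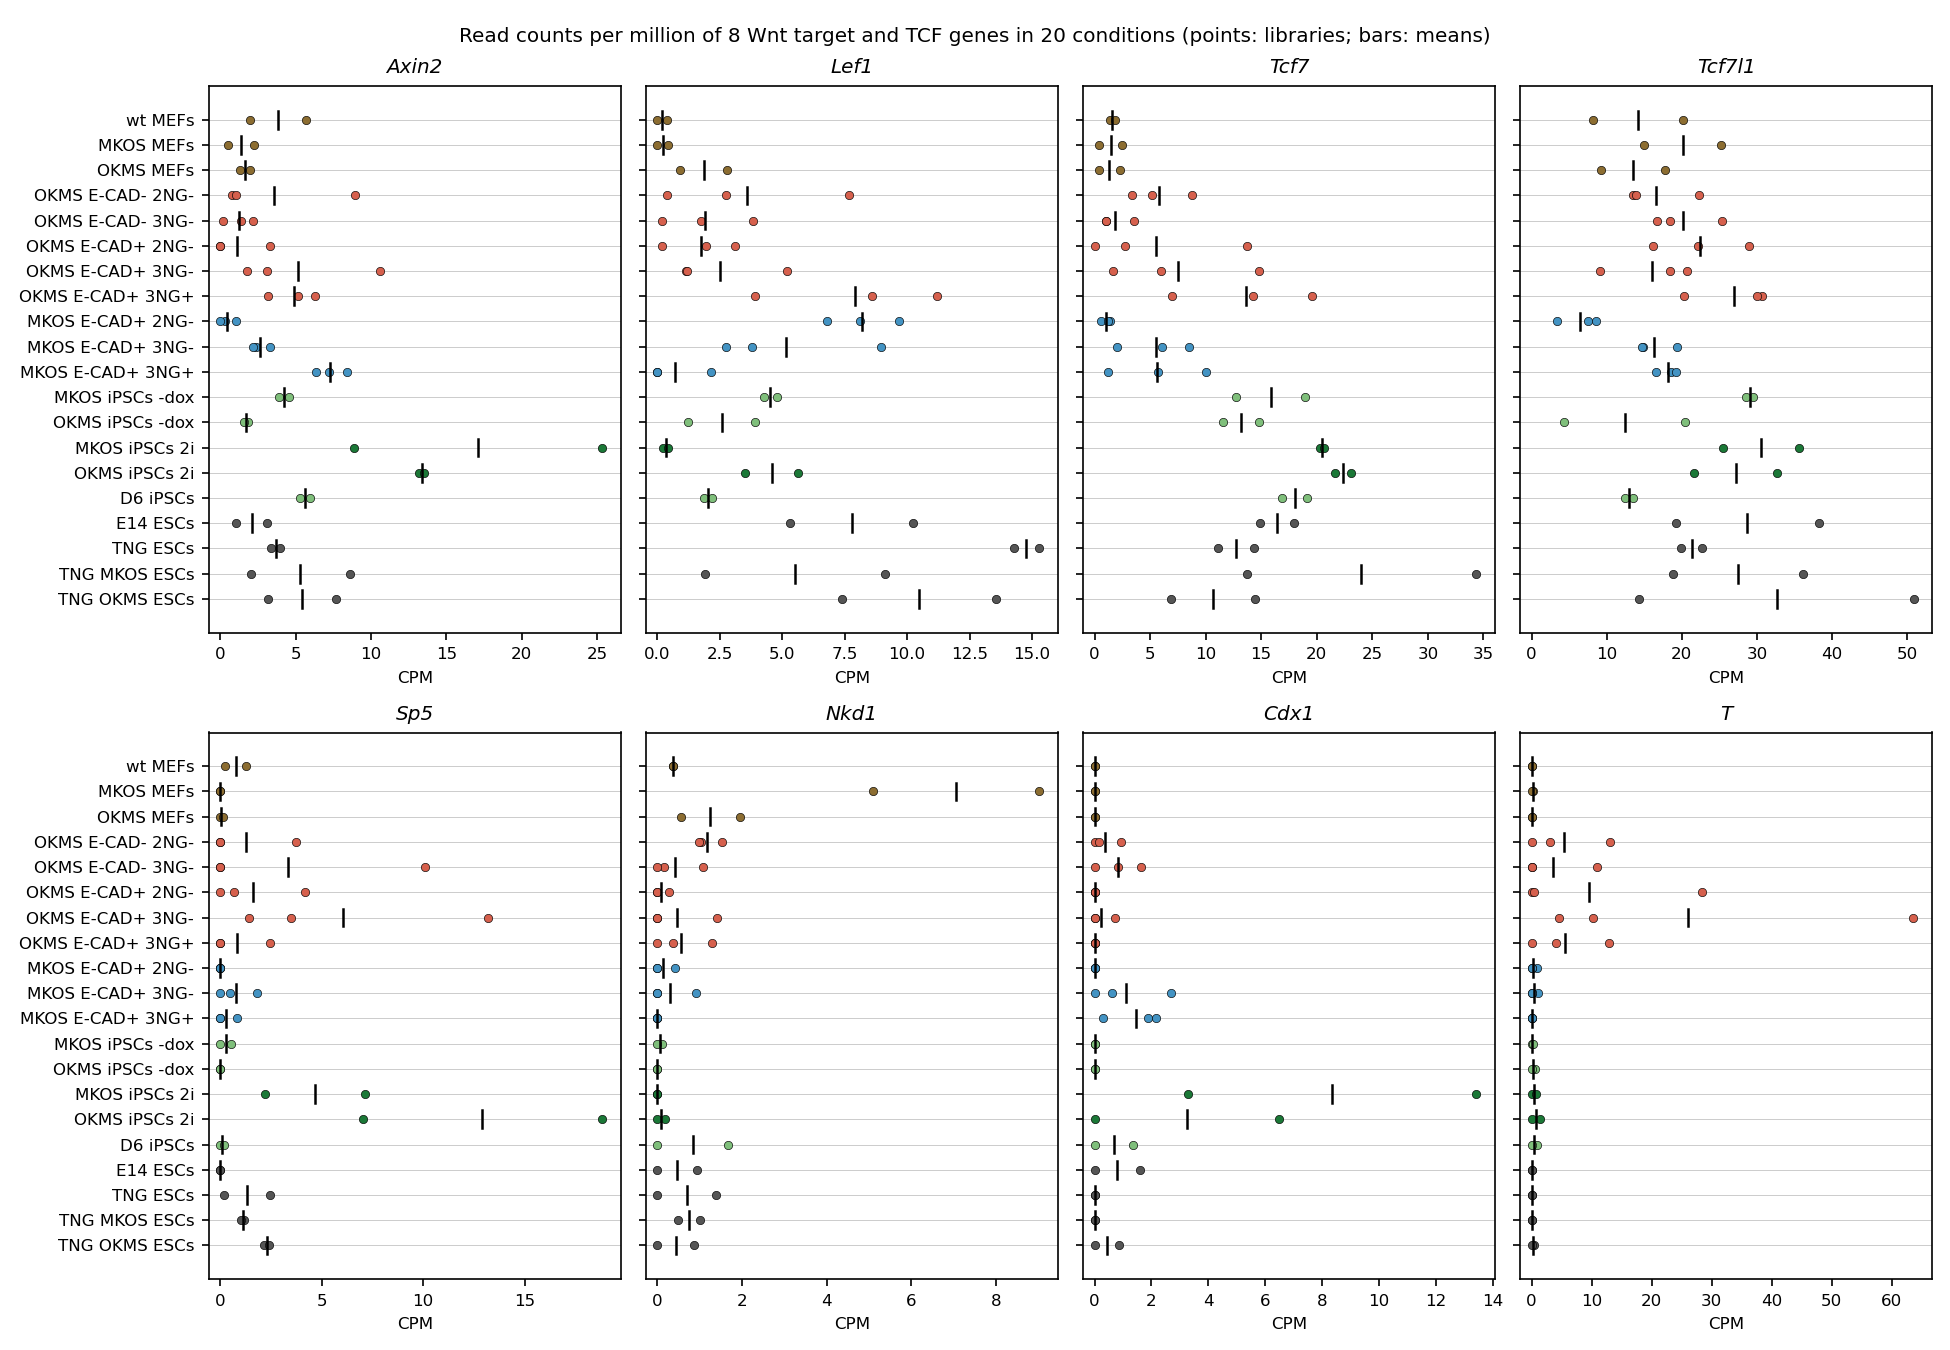
CPM of the 8 genes (horizontal axis, linear, its own range in each panel) in the 20 conditions (vertical axis), with a point for each library and a vertical bar at the mean of the condition. By mean, Axin2 and Cdx1 were highest in the iPSC conditions in 2i, and Nkd1 in MKOS MEFs at 5.10 and 9.01 CPM. Sp5 was highest in OKMS iPSCs 2i, but OKMS E-CAD+ 3NG- (6.03 CPM) stood above MKOS iPSCs 2i (4.67 CPM). T was highest in OKMS sorted populations, where the highest library reached 63.6 CPM.

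Labelled cell types were checked by summed CPM of fixed markers. The 8 fibroblast genes (Thy1, Col1a1, Col1a2, Col3a1, Twist2, Prrx1, Postn and Fbn1) summed to between 3108 and 5320 CPM in the 6 MEF libraries and to between 4.62 and 10.0 CPM in the 8 ESC libraries. The 6 pluripotency genes (Nanog, Zfp42, Dppa5a, Utf1, Esrrb and Tdgf1) summed to between 2.04 and 11.5 CPM in MEFs and to between 10533 and 17590 CPM in ESCs. In the iPSC libraries fibroblast markers stood at 7.30 to 26.4 CPM without doxycycline and at 8.0 to 23.3 CPM in 2i. Primitive streak and mesendoderm markers (Mixl1, Eomes, Gsc, Mesp1, Foxa2, Fgf8, Gata6 and Sox17) summed there to 2.32 to 5.32 CPM and 1.23 to 9.08 CPM, so neither list separated the 2 media over both cassettes. Within a cassette the mesendoderm sums of the media did not overlap, in opposite directions, but they were low, with 2 libraries on each side. None of the 8 mesendoderm markers was called within either cassette. The sum was at 4.67 and 5.32 CPM in MKOS -dox and 9.08 and 7.92 CPM in MKOS 2i. In OKMS it was at 2.47 and 2.32 CPM in -dox and 1.41 and 1.23 CPM in 2i.

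In 2i, Axin2, Sp5 and Cdx1 stood higher than in iPSCs without doxycycline, and Tcf7 slightly so, but none of the 8 genes passed the threshold of the test across all genes. The question is whether genes downstream of beta-catenin stand higher in cells held in 2i, a medium generally known to hold a GSK3 inhibitor. Axin2 was at 4.56 and 3.90 CPM in the MKOS iPSCs -dox libraries and at 1.86 and 1.60 CPM in the OKMS ones, against 8.86 and 25.3 CPM in MKOS iPSCs 2i and 13.2 and 13.5 CPM in OKMS iPSCs 2i. Every 2i library lay above every -dox library. The means were 15.2 ± 7.04 CPM in 2i and 2.98 ± 1.47 CPM in -dox (SD, n = 4 each), and the log2 fold change was 2.38 with a standard error (SE) of 0.86 and an adjusted p of 0.110 in edgeR's quasi-likelihood test with Benjamini-Hochberg adjustment (false discovery rate, FDR).

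Sp5 was at 0.518 CPM in 1 MKOS iPSCs -dox library and listed at 0 in the other 3 -dox libraries. In 2i it was at 7.13 and 2.20 CPM in MKOS iPSCs and at 7.05 and 18.8 CPM in OKMS iPSCs, again with no overlap between the media. Its fitted log2 fold change was 6.71 (SE 2.08, edgeR FDR 0.0578), on 190 reads in 2i and 5 in -dox. That value averages the cassettes, and OKMS -dox had no read, so its size rests in part on a fitted value there. Pooled over the reads, the level in 2i was 47.6 times that in -dox. Taken by cassette, the fold change was 3.89 on the log2 scale in MKOS iPSCs, and in OKMS iPSCs, where -dox had no read, Sp5 was at least 45.1-fold higher against a floor of 3 reads over the group.

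Cdx1 had no read in any of the 4 -dox libraries. In 2i it was at 13.4 and 3.30 CPM in MKOS iPSCs and at 0 and 6.5 CPM in OKMS iPSCs, so that 3 of 4 libraries held it and OKMS replicate 1 did not. Over the 4 libraries the level was at least 47.6-fold higher than the floor of 3 reads over the -dox group (edgeR FDR 0.0556). Outside 2i, the highest Cdx1 value in any of the other 44 libraries was 2.68 CPM.

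Differences were smaller for Tcf7 and Tcf7l1. Tcf7 was at 19.0 and 12.8 CPM in MKOS iPSCs -dox, 11.5 and 14.8 CPM in OKMS iPSCs -dox, 20.3 and 20.7 CPM in MKOS iPSCs 2i and 23.1 and 21.6 CPM in OKMS iPSCs 2i. The 2 media did not overlap, but the difference was small beside the spread over all conditions (log2 fold change 0.47, SE 0.63, FDR 0.820). Tcf7l1, the repressor, was at 29.6 and 28.6 CPM in MKOS iPSCs -dox and 4.33 and 20.5 CPM in OKMS iPSCs -dox, and at 35.7 and 25.5 CPM and 21.7 and 32.7 CPM in 2i, with overlapping ranges (0.51, SE 0.36, FDR 0.513).

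Lef1 values pointed in unlike directions in the 2 cassettes. In MKOS iPSCs it was at 4.25 and 4.79 CPM without doxycycline and at 0.216 and 0.440 CPM in 2i, on 68 and 3 reads. The 2i level was 0.0735 times the -dox level there, with a 95% counting interval of 0.0148 to 0.224. In OKMS iPSCs the values were 1.24 and 3.92 CPM without doxycycline and 5.64 and 3.51 CPM in 2i, which overlapped. The difference between the 2 effects was tested as an interaction and gave -4.46 on the log2 scale (SE 1.94, unadjusted p = 0.0271, edgeR FDR 0.593). Over both cassettes the change was -1.54 (SE 0.96, FDR 0.441).

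Nkd1 had a single read in 2i and a single read in -dox over all 8 libraries, and a difference was not detectable at this depth. T had 11 reads in 2i, at 0, 0.660, 1.41 and 0 CPM, and 4 in -dox, at 0, 0.177, 0.619 and 0 CPM, also too few to separate the media (FDR 0.836).

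Counted together, 0 of 8 genes passed an FDR of 0.05 in edgeR, beside 4.34% of all genes tested (679 of 15630), and 3 had an unadjusted p of at most 0.05 (17.4% of all genes). DESeq2's Wald test called 2, Axin2 at an adjusted p of 0.0485 and Sp5 at 0.0288, beside 986 genes called in all. The median log2 fold change was 0.99 over the 8 genes and 0 over all genes. Of the 8, 3 genes, Axin2, Sp5 and Tcf7, were higher in every 2i library than in every -dox library, against 4.96% of all genes. The calls changed with the libraries in the fit. Fitted to the 8 iPSC libraries alone, Axin2, Sp5 and Cdx1 had FDR of 0.0151, 0.00638 and 0.0384, and without 7 of the sorted libraries that entered the fit they had 0.0189, 0.0167 and 0.0346. Those 2 fits called 357 and 903 genes in all. Over all alternatives FDR ran from 0.0151 to 0.290 for Axin2, from 0.00121 to 0.221 for Sp5 and from 0.0120 to 1.000 for Cdx1. Leaving out any 1 iPSC library kept each of the 3 above 0 and none of them called. For the interaction between cassette and medium, 0 of 8 passed in edgeR and 0 in DESeq2, 1 had an unadjusted p of at most 0.05 (7.4% of all genes) and 0.0064% of all genes were called (1 gene).

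**Figure D2:**
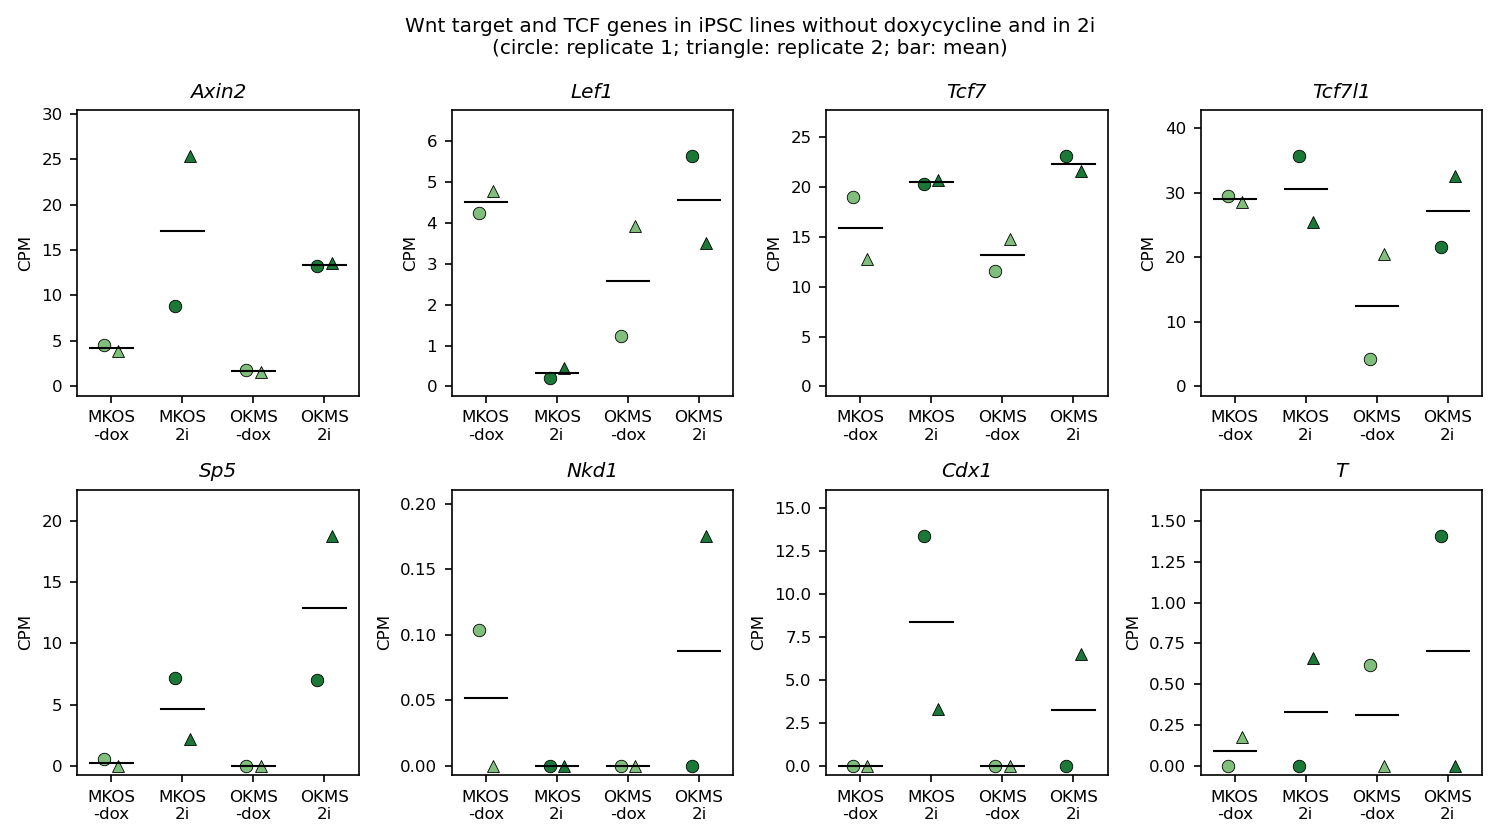
CPM (vertical axis, linear, its own range in each panel) of the 8 genes in the 8 libraries of MKOS and OKMS iPSCs, with a circle for replicate 1, a triangle for replicate 2 and a bar at the mean. Axin2 lay between 1.60 and 4.56 CPM without doxycycline and between 8.86 and 25.3 CPM in 2i, while Lef1 was low in both MKOS libraries in 2i (0.216 and 0.440 CPM).

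The rest of the pathway was read from 6 fixed lists with 100 genes in all, of which 90 were tested. In 2i against -dox, 1 was called higher and 4 lower, or 5.56% of them, close to the 4.34% of all genes, and the list median was 0. Of the Wnt ligands and secretion factors none of 19 tested was called, and Wls, the carrier needed for Wnt secretion, was at 9.57 CPM in 2i and 9.58 CPM in -dox (FDR 1.000). None of 15 secreted inhibitors was called either, with Sfrp1, a decoy that binds Wnt, at 24.9 and 13.5 CPM (FDR 0.343).

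Among 18 receptor genes only Lgr4, a receptor for R-spondins that raises Wnt sensitivity, was called, at 13.3 ± 3.37 CPM in 2i and 28.0 ± 7.23 CPM in -dox (log2 fold change -1.18, SE 0.35, edgeR FDR 0.0405). Of 14 genes for beta-catenin and its destruction complex only Gsk3b was called, at 29.0 ± 6.89 against 12.0 ± 1.94 CPM (1.17, SE 0.32, FDR 0.0262). It encodes the kinase that phosphorylates beta-catenin. Of 14 nuclear partners 2 were called, both lower: Tle4, a Groucho corepressor (-1.15, SE 0.25, FDR 0.00431), and Ctbp2, another corepressor (-0.87, SE 0.20, FDR 0.00481). Of 14 other Wnt targets 1 was called, Bmp4, a signalling ligand, at 3.20 ± 1.46 CPM in 2i and 14.2 ± 7.54 CPM in -dox (-2.29, SE 0.49, FDR 0.00339).

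Of 5 pluripotency genes known to be repressed by TCF7L1, Tfcp2l1 was called higher, at 252 ± 30.4 CPM in 2i against 51.0 ± 30.0 CPM in -dox (2.23, SE 0.43, FDR 0.00114). The 2i values began at 228 CPM, above every -dox value. The other 4 genes of the list are given after their values were seen, none past the threshold. Nanog was at 181 and 82.2 CPM (FDR 0.123), Esrrb at 142 and 97.3 CPM (FDR 0.502), Nr0b1 at 31.2 and 64.7 CPM (FDR 0.0644) and Klf2 at 104 and 111 CPM (FDR 0.920).

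The medium generally known as 2i also inhibits MEK, though the sources do not say what was used here. Of 6 MEK-ERK response genes 4 were called lower, beside 4.34% of all genes called in either direction, with a list median of -2.29. The part of MEK in this was not tested. Dusp6, the ERK phosphatase, was at 4.09 ± 1.73 CPM in 2i and 48.2 ± 21.0 CPM in -dox (-3.64, SE 0.34, FDR 8.62e-10). Spry4, a feedback inhibitor of receptor tyrosine kinase signalling, had 3 reads in 2i and 831 in -dox, 221-fold lower with a counting interval of 75.4 to 1074. Etv4, an ETS factor, changed by -2.86 (SE 0.58, FDR 0.00162). Among the pluripotency markers Utf1 and Tdgf1, an ESC chromatin factor and the NODAL co-receptor Cripto, were called lower (-4.04, SE 0.44, FDR 9.12e-08, and -1.35, SE 0.34, FDR 0.0120). No fibroblast and no mesendoderm marker was called in this comparison. The most abundant of each by the mean over the 8 libraries, Thy1 and Gata6, were at 3.33 and 1.51 CPM in 2i and at 5.44 and 2.15 CPM in -dox.

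**Figure D3:**
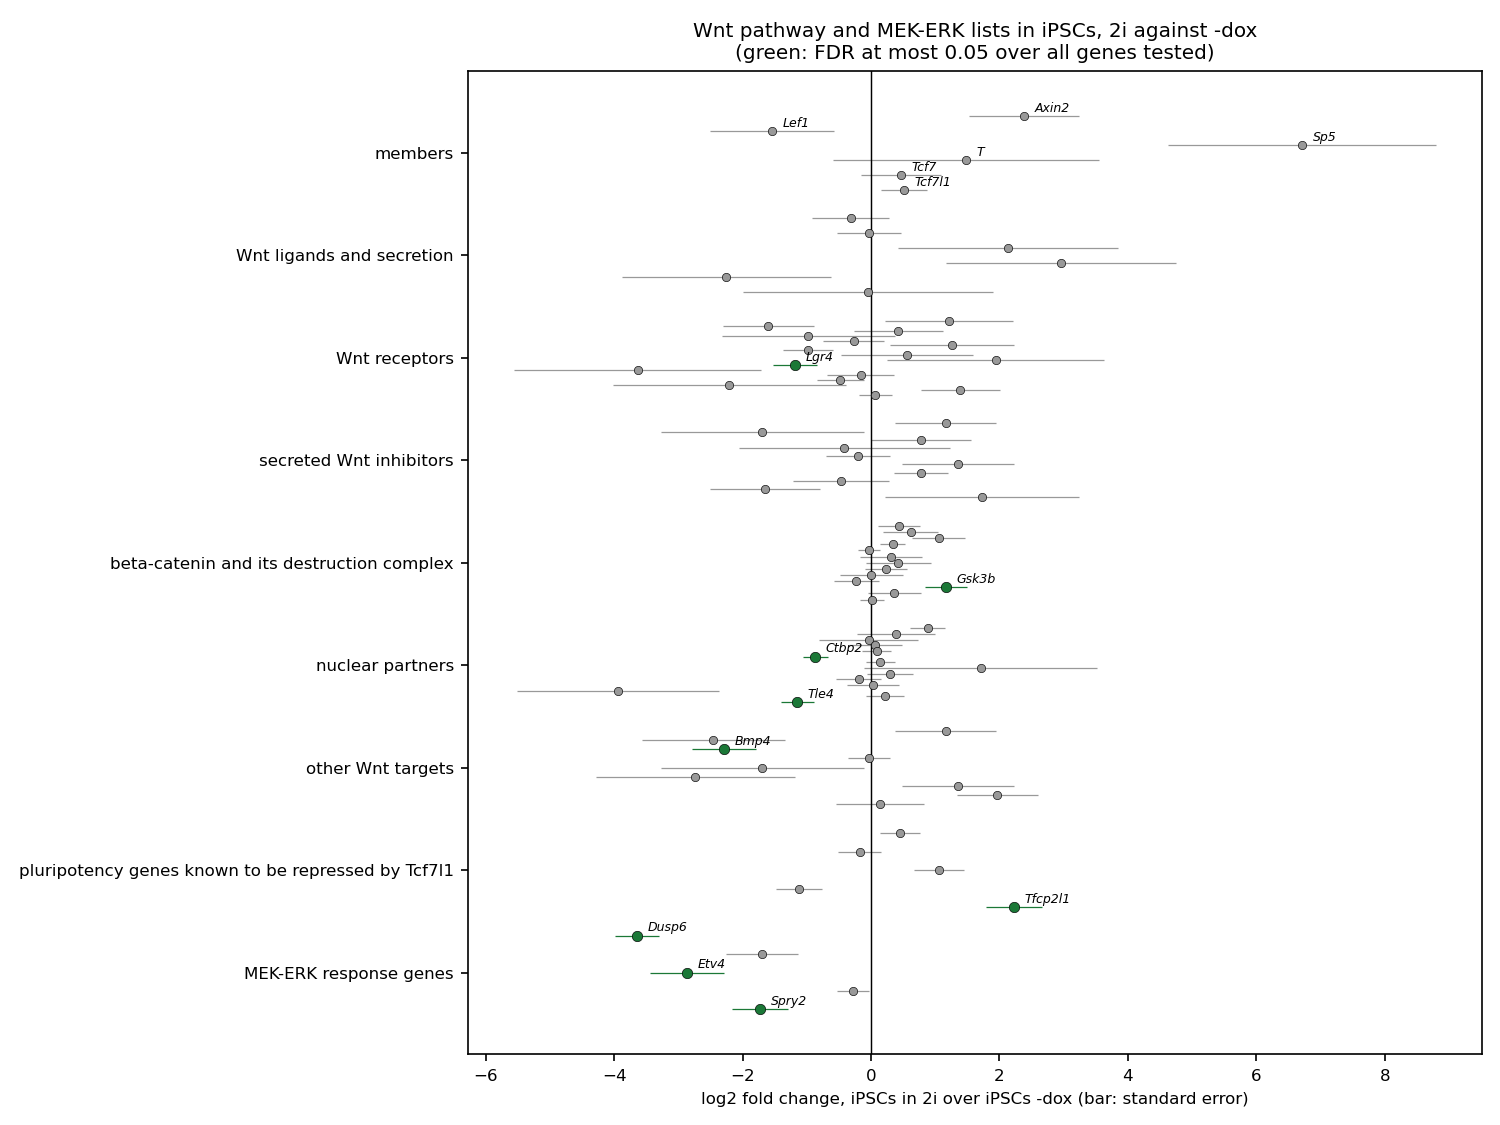
Log2 fold change of iPSCs in 2i over iPSCs -dox (horizontal axis, bars of 1 standard error) for genes of the 8 and of each fixed list (vertical axis) with more than 3 reads on both sides, in green where the FDR was at most 0.05. The 6 drawn of the 8 genes are grey, with Axin2 at 2.38 and Sp5 at 6.71, while 3 of 5 drawn MEK-ERK response genes are green and to the left. The Sp5 value rests in part on a fitted value for OKMS iPSCs -dox, which had no read.

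Against the ESCs that carry the same cassettes, iPSCs in 2i had more Axin2 in every library (15.2 against 5.37 CPM on average), with no overlap with TNG MKOS ESCs (2.05 and 8.58 CPM) or TNG OKMS ESCs (3.19 and 7.65 CPM). The change was 1.56 on the log2 scale (SE 0.82, edgeR FDR 0.228), and of all genes 6.73% had the same kind of separation. Cdx1 was at 0, 0, 0 and 0.875 CPM in the ESC libraries (log2 fold change 5.80, SE 2.08, FDR 0.0672), and Sp5 at 1.17, 1.02, 2.18 and 2.41 CPM (2.30, SE 1.5, FDR 0.356). The size of the Cdx1 change rests in part on a fitted value for TNG MKOS ESCs, which had no read. Lef1 was lower in 2i, at 2.45 against 7.98 CPM (-2.63, SE 0.96, FDR 0.0666). None of the 8 was called in edgeR, beside 12.3% of all genes, and 2 had an unadjusted p of at most 0.05 (25.5% of all genes). DESeq2 called 1, Lef1 (adjusted p 0.0391, with a range of 0.0173 to 0.307 over all alternatives), beside 2314 genes called in all.

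The iPSCs without doxycycline were set against the same ESCs. None of the 8 was called in edgeR or in DESeq2, beside 1.4% of all genes in edgeR, and 1, Sp5, had an unadjusted p of at most 0.05, as had 14% of all genes (log2 fold change -4.41, SE 2.05, FDR 0.325). Sp5 was lower in each of the 4 iPSC libraries (0 to 0.518 CPM) than in each of the 4 ESC libraries (1.02 to 2.41 CPM), and 2.8% of all genes were separated in that direction. OKMS iPSCs -dox had no Sp5 read, so the size of -4.41 rests in part on a fitted value. D6 iPSCs had 5.28 and 5.95 CPM of Axin2, 1.86 and 2.19 CPM of Lef1 and 19.2 and 16.9 CPM of Tcf7. E14 ESCs had 1.06 and 3.10 CPM of Axin2 and no read of Sp5 or T.

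Across the 20 conditions few neighbours in the order of levels were separate. Axin2 was highest in MKOS iPSCs 2i (17.1 ± 11.6 CPM, SD, n = 2) and OKMS iPSCs 2i (13.4 ± 0.222 CPM), whose ranges overlapped. The next condition by mean, MKOS E-CAD+ 3NG+, held 7.31 ± 1.05 CPM (n = 3) and did not reach them. Single libraries outside 2i did, with 10.6 CPM in OKMS E-CAD+ 3NG- replicate 3 and 8.97 CPM in OKMS E-CAD- 2NG- replicate 3. Both lay above MKOS iPSCs 2i replicate 1 (8.86 CPM). Only 2 of 19 neighbouring pairs of conditions were separate for Axin2, and its lowest mean was 0.438 CPM in MKOS E-CAD+ 2NG-. Tcf7 was highest in TNG MKOS ESCs (24.0 ± 14.6 CPM), with both 2i conditions next, and lowest in MKOS E-CAD+ 2NG- (1.08 CPM) and the 3 MEF conditions (1.33 to 1.59 CPM). Lef1 stood highest in TNG ESCs (14.8 ± 0.692 CPM), separate from TNG OKMS ESCs (10.5 ± 4.37 CPM), and lowest in wt MEFs (0.189 CPM) and MKOS MEFs (0.222 CPM). Tcf7l1 ran from 32.6 ± 25.9 CPM in TNG OKMS ESCs to 6.47 ± 2.72 CPM in MKOS E-CAD+ 2NG-, and each of its 19 neighbouring pairs overlapped. The same held for Sp5, Cdx1 and T, which had no read in 4, 10 and 6 conditions. Mean Sp5 was 12.9 CPM in OKMS iPSCs 2i, 6.03 CPM in OKMS E-CAD+ 3NG- and 4.67 CPM in MKOS iPSCs 2i. Nkd1 stood apart in MKOS MEFs only, at 7.05 ± 2.77 CPM against 1.25 ± 0.983 CPM in OKMS MEFs, the next.

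The genes with the most similar pattern were sought by Pearson correlation of log2(CPM + 1) over the 20 condition means, given as a description of points that share libraries and depth. For Axin2 they were Pdxk (r = 0.85), Cpeb1 (0.84) and H2-Q2 (0.82), all highest in a 2i condition. For Tcf7 they were C330021F23Rik (0.96), Gpr19 (0.95) and Snhg11 (0.94), and for Cdx1 Slc25a34 (0.90), Bpifb5 (0.88) and Cidea (0.86), again highest in 2i. For Sp5 they were 1700001O22Rik (0.78), Cdx2 (0.77) and Cuta (0.76). T was most like Krt6b (0.97), Fgf8 (0.97) and Samd3 (0.96), highest in OKMS E-CAD+ populations, and Nkd1 like Has1 (0.87), Pkhd1l1 (0.87) and Dlg2 (0.85), highest in MKOS MEFs. For Lef1 the genes were Cops7b (0.85), Gtse1 (0.81) and Ddx46 (0.81), and for Tcf7l1 Setd1a (0.80) and Zfp292 (0.79). Among the 8, Axin2 correlated most with Cdx1 (0.68), Tcf7 (0.67) and Sp5 (0.57).

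From MKOS and OKMS MEFs to iPSCs without doxycycline, the activator genes Tcf7 and Lef1 were called higher and Nkd1 lower. Tcf7 was at 0.371 to 2.46 CPM in the 4 MKOS and OKMS MEF libraries and at 11.5 to 19.0 CPM in the 4 iPSC libraries, without overlap (log2 fold change 3.39, SE 0.72, edgeR FDR 0.000130). Lef1 was at 0, 0.443, 2.78 and 0.916 CPM in the MEFs and averaged 3.55 CPM in the iPSCs (2.67, SE 1.02, FDR 0.0268). Nkd1 fell from 9.01, 5.10, 0.557 and 1.95 CPM to a single read in 4 libraries, 0.00842 times the MEF level with a counting interval of 0.000212 to 0.0478 (FDR 0.0129). Its MEF reads were mostly from MKOS MEFs, with 111 there and 20 in OKMS MEFs. The wt MEFs, which were not in this comparison, held only 0.377 and 0.365 CPM of Nkd1. These 3 of 8 calls stand beside 50.6% of all genes, and the 3 calls in DESeq2 beside 7614 genes called in all. Axin2 (1.04, FDR 0.334) and Tcf7l1 (0.34, FDR 0.455) did not pass. Of the 90 pathway genes tested in the 6 lists, 9 were called higher and 33 lower in the iPSCs. The Lef1 call was lost without OKMS iPSCs -dox replicate 2 (FDR 0.113), MKOS MEFs replicate 1 (0.141) or OKMS MEFs replicate 2 (0.0979), and that of Nkd1 without either of 2 OKMS iPSCs -dox libraries (0.0518 and 0.0570) or MKOS iPSCs -dox replicate 2 (0.0536). In bulk samples such as these, fewer cells with a transcript and less transcript per cell cannot be told apart.

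In MKOS intermediates, the E-CAD+ 2NG- and 3NG- cells, Lef1 was called higher and Nkd1 and Tcf7l1 lower than in MKOS MEFs. Lef1 was at 9.69, 6.79 and 8.13 CPM in 2NG- and at 8.93, 3.78 and 2.74 CPM in 3NG-, against 0 and 0.443 CPM in MKOS MEFs, whose 2 libraries held 2 reads in all. The level was 48.9 times that of the MEFs, with a counting interval of 13.4 to 406 (FDR 0.00789). Nkd1 changed by -5.11 on the log2 scale (SE 1.65, FDR 0.0153), with no overlap, and Tcf7l1 by -1.03 (SE 0.39, FDR 0.0416), with overlap. The Tcf7l1 values were 7.45, 8.56 and 3.39 CPM in 2NG- and 14.9, 14.6 and 19.3 CPM in 3NG-, against 14.9 and 25.3 CPM in the MEFs. These 3 calls, 2 of them also in DESeq2, stand beside 32.5% of all genes in edgeR and 5043 genes called in DESeq2. None of the 3 was kept without MKOS MEFs replicate 1, where FDR was 0.142 for Lef1, 0.0838 for Nkd1 and 0.0584 for Tcf7l1. The Tcf7l1 call also ended without MKOS MEFs replicate 2 (0.344), MKOS E-CAD+ 3NG- replicate 1 (0.0598) or 2 (0.0501), or MKOS E-CAD+ 2NG- replicate 3 (0.0957), and its DESeq2 call stood at an adjusted p of 0.0209, over a range of 0.0173 to 0.344.

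In OKMS intermediates, the E-CAD+ NG- cells, Tcf7 and T were called higher than in OKMS MEFs, beside 33.8% of all genes called and 16.7% called higher, and DESeq2 called Tcf7 alone. Tcf7 was at 5.98, 1.67 and 14.8 CPM in 3NG- and at 2.73, 0 and 13.8 CPM in 2NG-, against 0.371 and 2.29 CPM in the MEFs (2.39, SE 0.90, FDR 0.0359). T had no read in OKMS MEFs, and 4.64, 10.2 and 63.6 CPM in 3NG- and 0, 0.322 and 28.4 CPM in 2NG-, at least 84.5-fold higher than the floor of 3 reads over the MEF group (FDR 0.0254). In each population replicate 3 held most of the signal. Without the 7 sorted libraries, which include every NG- replicate 3, FDR was 0.408 for Tcf7 and 0.150 for T. Without OKMS E-CAD+ 2NG- replicate 3 alone it was 0.195 and 0.160, and leaving out either OKMS MEF library also ended both calls (0.278 and 0.126, 0.0564 and 0.177). Without OKMS E-CAD+ 3NG- replicate 3 the FDR of Tcf7 was 0.0877.

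Between the cassettes, T, Sp5 and Tcf7l1 were lower in MKOS than in OKMS E-CAD+ NG- intermediates, 3 of 8 in edgeR, with 3 also in DESeq2, beside 11.9% of all genes called and 5.2% called lower. The genes differed in part, since DESeq2 called Tcf7 (adjusted p 0.0440) and not T (0.175, over a range for T of 1.21e-09 to 0.851 across the alternatives). T was at 1.12 CPM in MKOS 3NG- replicate 1, at 0.816 CPM in MKOS 2NG- replicate 1 and at 0 in the other 4 MKOS libraries, against the OKMS values above (log2 fold change -5.61, SE 1.48, FDR 0.0104). Sp5 had 19 reads in MKOS, at 1.79 and 0.472 CPM in 3NG- replicates 1 and 2, and in OKMS it was at 3.48, 1.43 and 13.2 CPM in 3NG- and 0.682, 0 and 4.16 CPM in 2NG- (-4.88, SE 1.53, FDR 0.0310). MKOS 2NG- had no Sp5 read, so the size of that change rests in part on a fitted value. Pooled over the reads, Sp5 in MKOS was 0.103 times its level in OKMS. Tcf7l1 averaged 11.4 CPM in MKOS and 19.3 CPM in OKMS (-0.99, SE 0.30, FDR 0.0218). Its means differed in 2NG-, at 6.47 CPM in MKOS and 22.5 CPM in OKMS, but not in 3NG-, at 16.3 and 16.0 CPM. Tcf7 missed the threshold in edgeR (-1.57, SE 0.55, FDR 0.0554). Lef1 pointed the other way, at 6.68 against 2.12 CPM (1.51, SE 0.71, FDR 0.168).

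Replicate 3 of the OKMS populations stood apart for these genes. Over the 4 OKMS NG- populations T lay between 0 and 10.2 CPM in the 8 libraries of replicates 1 and 2 and between 10.9 and 63.6 CPM in the 4 of replicate 3. Sp5 lay between 0 and 3.48 CPM and between 3.75 and 13.2 CPM in the same libraries. The mesendoderm markers moved with them, with a summed level of 0 to 30.7 CPM in replicates 1 and 2 and 45.5 to 148 CPM in replicate 3, where 0 of the 8 markers was without a read, and their part in the result was not tested. In MKOS E-CAD+ NG- cells the same list summed to 0.271 to 4.91 CPM and 4 of its 8 genes, Mixl1, Gsc, Foxa2 and Sox17, had no read. Without the 7 sorted libraries none of the 3 calls between cassettes was kept, at FDR of 0.851 for T, 0.282 for Sp5 and 0.185 for Tcf7l1, and the T difference was -1.11 on the log2 scale. Without OKMS E-CAD+ 2NG- replicate 3 alone FDR was 0.553 for T and 0.130 for Sp5. The Sp5 call also ended without MKOS 2NG- replicate 1, 2 or 3, MKOS 3NG- replicate 2 or 3 or OKMS 3NG- replicate 3 (FDR 0.0617 to 0.0743), and that of Tcf7l1 without MKOS 2NG- replicate 3 (0.0737), OKMS 3NG- replicate 3 (0.0655) or OKMS 2NG- replicate 2 (0.0501). Fibroblast markers were also higher in MKOS E-CAD+ NG- cells, at 397 to 992 CPM in sum against 79.6 to 293 CPM in OKMS, with 5 of 8 called, and so were pluripotency markers, at 2146 to 9379 against 704 to 5096 CPM, with 3 of 6 called. Their part was not tested.

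Other pathway genes also differed between the intermediates of the cassettes. Of the 90 tested in the 6 lists, 4 were called higher and 11 lower in MKOS, or 16.7% against 11.9% of all genes. The examples that follow were chosen after their values were seen, and fits without OKMS replicate 3 are not given for them. Dkk1, a secreted antagonist of LRP receptors and itself a Wnt target, was at 0 to 1.42 CPM in MKOS and 0 to 58.1 CPM in OKMS (-4.94, SE 1.24, edgeR FDR 0.00730). Wnt8a, a canonical ligand of the gastrulating embryo, was at 0 to 2.68 CPM and 5.0 to 15.2 CPM (-4.49, SE 1.03, FDR 0.00368), without overlap. Wif1, a secreted Wnt-binding inhibitor, went the other way, at 0.685 to 8.47 CPM in MKOS and at 0 to 0.511 CPM in OKMS (FDR 0.0150).

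**Figure D4:**
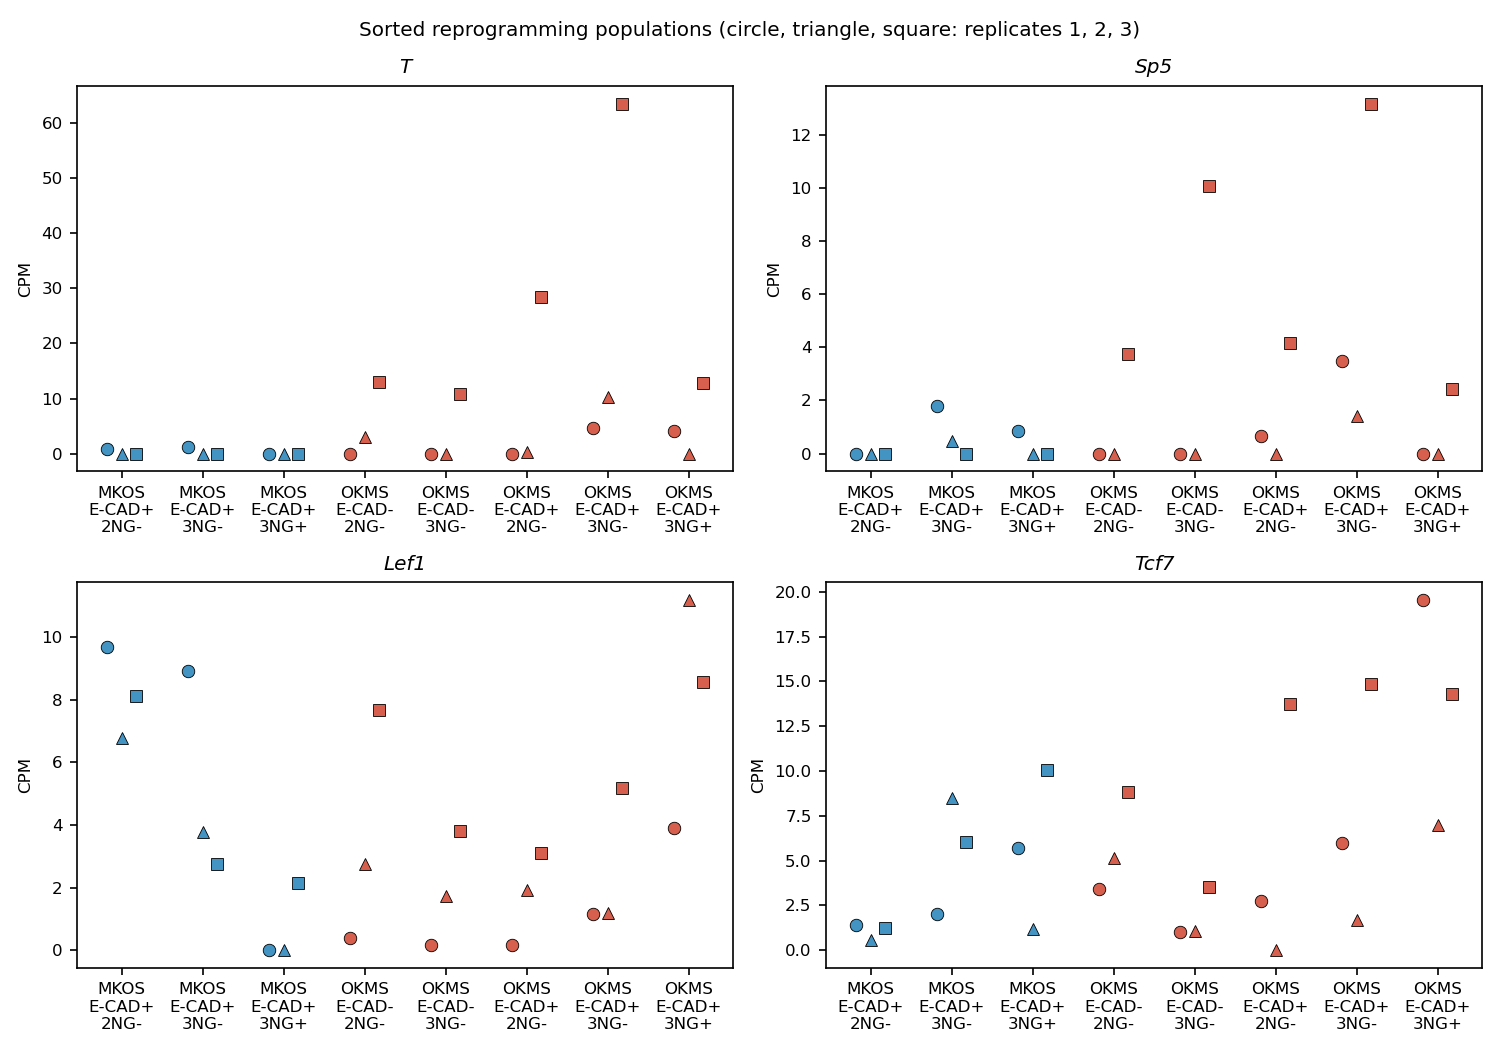
CPM (vertical axis, linear, its own range in each panel) of T, Sp5, Lef1 and Tcf7 in the 8 sorted populations, MKOS in blue and OKMS in red, with circle, triangle and square for replicates 1, 2 and 3. Replicate 3 was the highest library for T and Sp5 in each of the 5 OKMS populations, and in MKOS no library exceeded 1.12 CPM of T.

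E-cadherin status was compared within the OKMS system. None of the 8 was called between OKMS E-CAD+ and E-CAD- NG- cells in edgeR or DESeq2, beside 7.08% of all genes in edgeR, and 1, Tcf7, had an unadjusted p of at most 0.05, as had 21.5% of all genes (1.19, SE 0.56, FDR 0.207). Tcf7 in E-CAD- cells was at 3.42, 5.15 and 8.80 CPM in 2NG- and at 0.991, 1.05 and 3.54 CPM in 3NG-. T in E-CAD- cells was at 0, 3.09 and 13 CPM in 2NG- and at 0, 0 and 10.9 CPM in 3NG- (2.07, SE 1.24, FDR 0.346).

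Onset of the Nanog-GFP reporter in gate 3 came with no call among the 8 genes in either cassette, by edgeR or DESeq2, beside 1.58% of all genes in MKOS and 6.26% in OKMS. In MKOS, Axin2 was at 8.41, 6.32 and 7.19 CPM in 3NG+ and at 2.35, 2.20 and 3.31 CPM in 3NG-, without overlap (1.64, SE 0.96, FDR 0.403), a separation shown by 6.25% of all genes. Lef1 was lower in 3NG+, at 0, 0 and 2.16 CPM against 8.93, 3.78 and 2.74 CPM (-2.46, SE 1.06, edgeR FDR 0.243), and 17.9% of all genes were lower in every 3NG+ library than in every 3NG- library. It was the gene of the 8 in MKOS with an unadjusted p of at most 0.05 (16% of all genes), and without MKOS 3NG+ replicate 3 its FDR was 0.0426. In OKMS, Lef1 was at 3.91, 11.2 and 8.58 CPM in 3NG+ and at 1.16, 1.19 and 5.18 CPM in 3NG- (1.82, SE 1.03, FDR 0.299). Tcf7l1 was the gene with an unadjusted p of at most 0.05 there (21.5% of all genes), at 30.6, 20.3 and 30.0 CPM against 18.4, 9.05 and 20.7 CPM (0.98, SE 0.42, FDR 0.158). Whether the Lef1 change differs between cassettes was not tested.

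Between the 3NG+ cells of the cassettes no gene of the 8 was called in edgeR or DESeq2, beside 0.685% of all genes in edgeR, and 4 had an unadjusted p of at most 0.05 (12.2% of all genes). Lef1 was lower in MKOS, and no library overlapped (-3.33, SE 1.10, FDR 0.164, or 0.0259 without MKOS 3NG+ replicate 3). Tcf7l1, at 16.6, 18.6 and 19.2 CPM in MKOS, was also below every OKMS library (-0.75, SE 0.41, FDR 0.459), and 4.1% of all genes were lower in every MKOS library than in every OKMS library. Axin2 and Cdx1 were higher in every MKOS library, as were 13.1% of all genes. For Axin2 the margin was narrow, with 6.32 CPM in the lowest MKOS library and 6.29 CPM in the highest OKMS library. Cdx1 was at 1.89, 2.17 and 0.308 CPM in MKOS and had no read in OKMS. In OKMS 3NG+ replicate 2, 3 reads correspond to 2.10 CPM, so its 0 does not set it apart from such levels. T had no read in MKOS and stood at 4.04, 0 and 12.9 CPM in OKMS (FDR 0.201). From 3NG+ cells to iPSCs without doxycycline, 0 of 8 were called in edgeR or DESeq2, beside 3.29% of all genes in edgeR, and 0 had an unadjusted p of at most 0.05 (16.9% of all genes). Axin2 averaged 6.09 CPM in 3NG+ and 2.98 CPM in the iPSCs (-1.14, SE 0.79, FDR 0.494). Fibroblast markers moved with this comparison, at 98.0 to 611 CPM in sum in 3NG+ against 7.30 to 26.4 CPM in the iPSCs, with 6 of 8 called lower, and their part was not tested.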

How the data were processed

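Read counts of 48 STRT libraries were used as the authors deposited them, counted per transcript and not normalized. Reads were aligned with Bowtie 0.12.7 to mm10 per the submitters' processing notes, whereas the study's methods name mm9; 98.99% of 20698 shared symbols lay within 150 bases of their RefSeq GRCm38.p6 gene. Libraries were grouped by their labels, and no column of per-library values was left unmapped. CPM was computed over transcripts alone, without repeats and spike-ins.

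Comparisons were fitted in edgeR 4.0.16 (R 4.3.3), with TMM scaling, filterByExpr, a coefficient per condition and all 48 libraries, by the quasi-likelihood test with Benjamini-Hochberg adjustment over 15630 genes (FDR at most 0.05). Each SE given is the size of the log2 fold change divided by the square root of that test's F statistic. DESeq2 1.42.0 was the alternative tool. Other alternatives were DESeq2 size factors, no filter, a fit to the compared libraries, a replicate block, leaving out 7 sorted libraries (replicate 3 of the 6 NG- populations and OKMS 3NG+ replicate 2), and 40 fits leaving out 1 library, which kept the trended dispersion and gene set of the full fit. The code was tested on simulated data. Intervals came from SciPy 1.17.1, tables from pandas 2.3.3 with NumPy 2.4.6 under Python 3.11.15, and plots from Matplotlib 3.10.9.

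A fold against a group at 0 used a floor of 3 reads over the group. Where a comparison averaged conditions and not all of them had a read, the fitted log2 change and its SE rest in part on a fitted value. Intervals (95%, exact) and floors cover counting error only. The 8 genes and the lists were chosen with earlier results of these data known. The text names the 8 genes, up to 3 called genes per list with the largest change in 2i (or the most abundant gene where none was called), and the 3 genes most like each of the 8, of which 1 is not reported here. Any other gene is said to be chosen after its values were seen.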

Additional observations from a re-analysis of the deposited data

How the results depend on the processing

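The count of the 8 genes called in 2i against -dox, 0 in edgeR, was 3 without the filter on low counts (Axin2, Sp5 and Cdx1), 2 with DESeq2's Wald test (Axin2 and Sp5), 3 in the fit to the iPSC libraries alone, 1 with the replicate block (Sp5) and 3 without the 7 sorted libraries. Over all genes, in the same order, 1025, 986, 357, 765 and 903 were called. Against ESCs, 2i had 0, and 2 without the filter, 1 with DESeq2, 3 in its own fit, 1 with the replicate block and 2 without the 7 libraries. Over all genes these settings called 2179, 2314, 1360, 2070 and 2272. OKMS intermediates against MEFs had 2, and 1 with DESeq2, 1 in their own fit and 1 without the 7 libraries, beside 5218, 4487 and 4982 of all genes. Of MKOS against OKMS intermediates, 3 became 0 without the 7 libraries. No filter gave 1 call (T) for OKMS E-CAD+ against E-CAD- and 2 for MKOS against OKMS 3NG+, and leaving out the 7 libraries gave 1 (Tcf7) for OKMS 3NG+ against 3NG-, each 0 before. Over all genes those fits called 1593, 484 and 1461. The cause of these changes was not tested. Leaving out 1 library at a time gave 1 to 3 calls for -dox iPSCs against MEFs, 0 to 3 for MKOS and 0 to 2 for OKMS intermediates against MEFs, 1 to 4 for MKOS against OKMS intermediates, and 0 to 1 for MKOS 3NG+ against 3NG- and MKOS against OKMS 3NG+. Of the values of single genes under the alternatives, 1447 kept their direction and side of the threshold, 39 passed it newly, 43 no longer did, and 68, in 32 results, changed sign. None of these 68 passed the threshold, as reported or under the alternative (lowest FDR 0.0567); genes with too few reads for a fitted fold were not counted as having a sign. The cause of these sign changes was not tested.

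The labels do not say that a replicate number marks a shared animal, batch or day, and not every same-numbered pair correlated over 0.1, so the number was not used as a pairing. Deviations of same-numbered libraries correlated with a mean r of 0.094 over 84 pairs of sorted libraries (27 over 0.1) and 0.099 over 12 pairs of iPSC libraries (6 over 0.1). With the replicate block, Sp5 passed in 2i (FDR 0.0208), Tcf7 missed the threshold and Nkd1 passed it in OKMS intermediates against MEFs (0.145 and 0.0308), and Lef1 passed and Sp5 missed it between the intermediates (0.0410 and 0.0634).

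Counts over all genes also moved. In 2i against -dox 679 became 1025 without the filter and 357 in its own fit, and MKOS 3NG+ against 3NG- went from 247 to between 417 and 887 under 5 alternatives. The interaction went from 1 to 143 without the filter, 29 with DESeq2, 0 in its own fit and 4 without the 7 libraries. Leaving out the 7 took MKOS against OKMS intermediates from 1858 to 1208, OKMS E-CAD+ against E-CAD- from 1107 to 634, MKOS against OKMS 3NG+ from 107 to 219 and -dox iPSCs against ESCs from 219 to 389. Without the filter, MKOS against OKMS 3NG+ had 484, -dox iPSCs against ESCs 564, and -dox iPSCs against 3NG+ 987 in place of 515. DESeq2 gave 248 and 496 for MKOS against OKMS 3NG+ and -dox iPSCs against ESCs, the replicate block gave 175 for MKOS against OKMS 3NG+, and OKMS 3NG+ against 3NG- went from 979 to 428 in its own fit. At a floor of 0.311 to 0.660 CPM in the iPSC libraries, low levels of Nkd1 and T could not be separated between media.

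On the log2 scale, the sign turned with the replicate block for Axin2 (-0.18) and Lef1 (-0.60) in OKMS intermediates against MEFs, Tcf7 in MKOS 3NG+ against 3NG- (-0.12), Sp5 in MKOS against OKMS 3NG+ (0.25) and T in -dox iPSCs against 3NG+ (0.88). Without the 7 sorted libraries it turned for Axin2 (-2.97) and Lef1 (-0.82) in OKMS intermediates against MEFs, Axin2 in MKOS against OKMS intermediates (2.53) and in OKMS E-CAD+ against E-CAD- (-1.87), Cdx1 in MKOS 3NG+ against 3NG- (-0.062) and T in OKMS 3NG+ against 3NG- (0.46). Leaving out 1 library at a time gave both signs for these log2 values. In 2i against -dox iPSCs, T from -1.197 to 3.64. In the 2i effect in MKOS less that in OKMS, T from -3.43 to 6.24. In -dox iPSCs against MEFs, T from -0.61 to 3.31 and Tcf7l1 from -0.39 to 0.69. In MKOS intermediates against MEFs, T from -1.49 to 4.26, Axin2 from -1.06 to 0.90 and Tcf7 from -0.19 to 2.42. In OKMS intermediates against MEFs, Lef1 from -0.46 to 1.38 and Axin2 from -2.35 to 1.05. In MKOS against OKMS intermediates, Nkd1 from -2.38 to 2.00 and Axin2 from -2.15 to 1.79. In OKMS E-CAD+ against E-CAD-, Lef1 from -0.68 to 0.50, Axin2 from -2.65 to 1.48, Sp5 from -0.27 to 4.54 and T from -1.05 to 5.84. In MKOS 3NG+ against 3NG-, Tcf7 from -0.55 to 0.73, Sp5 from -5.36 to 0.30 and Cdx1 from -0.057 to 2.35. In OKMS 3NG+ against 3NG-, Axin2 from -0.36 to 1.202 and Nkd1 from -0.59 to 5.39. In MKOS against OKMS 3NG+, Sp5 from -5.93 to 3.91. In -dox iPSCs against 3NG+, Sp5 from -4.90 to 0.084, Tcf7l1 from -1.01 to 0.070 and Lef1 from -0.11 to 3.19. In -dox iPSCs against ESCs, Tcf7 from -0.14 to 0.38, Tcf7l1 from -1.17 to 0.027 and T from -0.35 to 3.34. In 2i iPSCs against ESCs, Tcf7l1 from -0.21 to 0.54. In MKOS iPSCs alone in 2i against -dox, Tcf7l1 from -0.20 to 0.19. In OKMS iPSCs alone in 2i against -dox, T from -4.32 to 5.35.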
